A study of Mus musculus with 3 samples.

Results

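The transcription factor genes Zeb2, Ikzf3, Ikzf2, Klf12, Tcf7, Myb, Bach2 and Aff3 were followed in sorted natural killer (NK) cells of mouse lung and blood. They were taken by their symbols, 8 of the 25906 genes in the files, with no cut on a measured value. The list was nevertheless chosen with earlier results of these data known. All 8 had a mean of at least 10 CPM over the groups, as had 7957 genes in all, which are the genes tested below. CPM are unique molecular identifiers (UMIs, counted mRNA molecules) of a gene scaled to 1000000 UMIs in all.

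The cells came from female, 9-week-old wild-type mice. One library each was made from naive mice, from mice killed 6 h after 100000 PyMT tumor cells of mammary origin had been injected into a vein, and from mice killed 14 days after this injection. In each library, live CD45+ NK1.1+ NKp46+ cells without lineage markers had been sorted from lung and blood. The lineage antibodies named in the paper include CD3ε, CD5 and TCRβ. The 2 tissues had been marked with separate hashtags. Lung and blood of a time point thus shared a library, while time points did not. Lung cells were taken to carry B0304 and blood cells B0306, because the study lists tissues and tags in this order. No tag separated single mice.

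Because there was 1 library per time point, no test between times was possible. Lung and blood were paired within the 3 libraries, and a test over these pairs is given after the comparisons within each library. Values are sums over cells, in CPM, with 95% intervals, exact unless stated, that cover counting error only. A difference between time points cannot be told apart from a difference between libraries. A gene is called past the fold where its ratio was at least 1.5 either way and the interval left out 0 on the log2 scale.

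The 6 groups held 2069 (14-day blood) to 4680 (6 h lung) cells, with sums of 16936897 to 35922737 UMIs and medians of 5909.5 to 7524 UMIs per cell. All 8 NK markers were found in each group, together at 18025 to 26549 CPM. The cells had been sorted on NK1.1 and NKp46, so this was no test of the label. Epithelial or tumor markers summed to at most 6.78 CPM. Myeloid markers summed to 89.99 to 192 CPM. T cell markers summed to 187 to 295 CPM, mostly from Trbc2, and the summed level of ILC1 markers was 106 CPM in 14-day lung and 84.1 in 14-day blood against 35.3 to 45.2 in the other groups. Hemoglobin genes reached 89.0 CPM in 14-day lung and at most 0.362 CPM elsewhere. Between pairs of libraries, 6 to 16 cell barcodes were shared.

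NK cells mature from a CD27-high, CD11b-low stage over a double-positive stage to a CD11b-high, CD27-low stage with strong cytotoxicity, and CD11b is encoded by Itgam. TCF-1, the product of Tcf7, acts early and declines as cells mature, whereas ZEB2, a zinc finger repressor, is needed together with T-bet to complete maturation. Helios (Ikzf2) and Aiolos (Ikzf3) are zinc finger factors of the Ikaros family, and Aiolos is itself needed for late NK maturation. MYB and BACH2 are best known for keeping progenitors and less differentiated lymphocytes. KLF12 is a Krüppel-like repressor with a reported part in NK proliferation, and AFF3 is a member of the AF4 family of elongation factors.

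The genes lie on several chromosomes (GRCm38, GENCODE M21) and most are long. Zeb2 spans chr2:44983632-45117395 and Ikzf3 chr11:98464902-98546031. Ikzf2 lies at chr1:69531214-69687245, Klf12 at chr14:99870632-100284679 and Aff3 at chr1:38177326-38664955, all of these on the minus strand. Tcf7 at chr11:52252371-52283014 and Myb at chr10:21124935-21160984, also on the minus strand, are the shortest, and Bach2 at chr4:32238804-32586108 is on the plus strand. When the tested genes were split by genomic span into 5 bins of equal size, 6 members fell in the bin of the longest genes, Myb in bin 4 and Tcf7 in bin 3.

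Several of the members moved together below, so the starts of the genes were searched for short motifs of ZEB, TCF, MYB and T-box factors. No member is a T-box factor, and members other than Zeb2, Tcf7 and Myb had no motif of their own searched. RefSeq promoters (GRCm38.p6, the 250 bases before a start) were matched for 6 of 8 members, with 10 starts, and not for Ikzf2 and Ikzf3. The motifs were CACCTG for ZEB factors, CTTTGA for TCF factors, CNGTTG for MYB and TCACACC for T-box factors, read on both strands. Each was found at 1 of the 10 starts, against 17.2%, 13.8%, 29.3% and 3.33% of all 32851 promoters in the order ZEB, TCF, MYB and T-box. The 10 starts are not independent, since Zeb2 and Tcf7 had several each and some Zeb2 promoters overlap. The Klf12 and Bach2 starts with a match lie inside the gene spans given above, not at their outer ends. The windows below show each match in capitals, at chr14:100149866-100149895, chr4:32417330-32417359, chr2:45117497-45117526 and chr10:21161216-21161234 in turn, each on its gene's strand.
Klf12, ZEB motif: tgcctccatcgtCAGGTGgcttcccccact
Bach2, TCF motif: actgtgttgttcTCAAAGttgagtagagtt
Zeb2, MYB motif: ccccaggcgaggCTGTTGgcgtccgcaccc
Myb, T-box motif: GGTGTGAgccggcgccacc
A match gives the letters only, and binding was not measured.

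Among the factors of late maturation, Zeb2 had the widest range. Its level was 1289 CPM in naive lung, 990.3 at 6 h and 631 at 14 days. In blood it was 1900.5, 1449.7 and 1264 CPM at the same times. Lung was below blood at each time, and the level in each tissue was lower at each later time. The 6 levels covered a 3.01-fold range, and only naive lung and 14-day blood overlapped within counting error. In a sum, fewer cells with a gene and less RNA per cell cannot be told apart, so shares of cells are given too. After thinning each cell to 3000 UMIs, 88.6% of naive lung cells had a Zeb2 UMI and 65.7% of 14-day lung cells. In blood the shares were 93.0% and 86.1%.

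Ikzf3 differed more between tissues than over time. It was found at 449 CPM in naive lung, 380.3 at 6 h and 373 at 14 days. In blood it was found at 777, 664 and 581 CPM. All 3 blood levels were above all 3 lung levels, and the last 2 lung levels were not distinguishable.

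Klf12 was alike in both tissues at the outset. It stood at 557 CPM in naive lung and 558 in naive blood, and at 465 and 452 CPM at 6 h. At 14 days it stood at 223 CPM in lung and 306.1 in blood. The lowest level was thus in 14-day lung, 2.49-fold below naive lung, and the share of thinned cells with a Klf12 UMI was 38.8% there against 66.6%.

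Tcf7 showed opposite patterns in the tissues. In lung it was at 41.4, 43.3 and 63.5 CPM in naive, 6 h and 14-day cells. In blood it was at 50.3, 54.8 and 33.7 CPM. The 14-day library thus held both its highest level, in lung, and its lowest, in blood. The share of thinned cells with a Tcf7 UMI was 9.19% in naive and 12.6% in 14-day lung, and 10.8% and 8.10% in blood.

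Ikzf2 was the other gene with its highest level in 14-day lung. It was at 43.0, 50.2 and 72.0 CPM in lung, and at 45.4, 35.7 and 40.6 CPM in blood. Unlike Tcf7, the share of thinned cells with a UMI overlapped between naive and 14-day lung, at 8.52% (7.63 to 9.49) and 9.19% (8.26 to 10.2). The UMIs were instead concentrated in few cells, a split made after the values were seen. In 14-day lung, 100 of 3575 cells had at least 5 Ikzf2 UMIs each and held 58.8% of the gene's UMIs, whereas in naive lung 37 of 3676 cells held 29.1%. This cut used UMIs before thinning, and median depth was 6999 UMIs per cell in 14-day and 5909.5 in naive lung. After thinning, 1.64% and 0.724% of cells had at least 3 Ikzf2 UMIs. The 14-day over naive ratio in lung lost the fold with thinned cells and without the 5% of cells with the most UMIs.

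Those Ikzf2-rich cells of 14-day lung carried genes of the T cell receptor complex. Cd3e was at 93.9 CPM in them and 0.485 CPM in the other 14-day lung cells, and Cd3d at 159 and 8.66 CPM. Cd3e was also higher in the Ikzf2-rich cells of 4 of the other 5 groups, at 34.8 to 122 CPM against at most 1.44, while in 6 h blood it was at 0. In 14-day lung, Il7r, the interleukin-7 receptor, was at 261 CPM in the Ikzf2-rich cells against 20.7. Ncr1, which encodes NKp46, was at 371 against 680.3 CPM and Gzma, a granzyme, at 2133 against 9810. H2-Aa, an MHC class II gene of antigen-presenting cells, was at 90.3 CPM against 6.98. Doublets within a tissue were not removed, and whether the same cells carried all these genes was not tested. With cells that had a UMI of Cd3d, Cd3e or Cd3g left out, Ikzf2 was at 37.8 CPM in naive and 53.6 CPM in 14-day lung, and the ratio no longer passed the fold.

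Myb, the factor of progenitors, was the member most restricted to lung. It was at 60.0, 62.9 and 36.3 CPM in lung and at 19.5, 22.6 and 11.3 CPM in blood. Every lung level was above every blood level, over a 5.58-fold range, and 14 days was the lowest time in both tissues.

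Bach2 was likewise higher in lung at each time. It was found at 804, 704 and 433 CPM in lung and at 529, 450.5 and 316 CPM in blood. The levels at 14 days in lung lay below those of naive and 6 h blood.

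Aff3 was lower in lung than in blood in the first 2 libraries, and higher in the last. It was at 224, 190.1 and 185 CPM in lung and at 294, 242 and 128 CPM in blood. The 6 h and 14-day levels in lung overlapped, whereas the blood levels were lower at each later time.

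The share of cells with a UMI was above the limit of free RNA of its library for each member in each group. The upper limits of that share for thinned naive cells, the library with most free RNA, were 17.2% for Zeb2, 7.13% for Bach2, 7.08% for Ikzf3, 5.67% for Klf12, 2.98% for Aff3, 1.23% for Tcf7, 0.801% for Myb and 0.548% for Ikzf2.

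**Figure D1:**
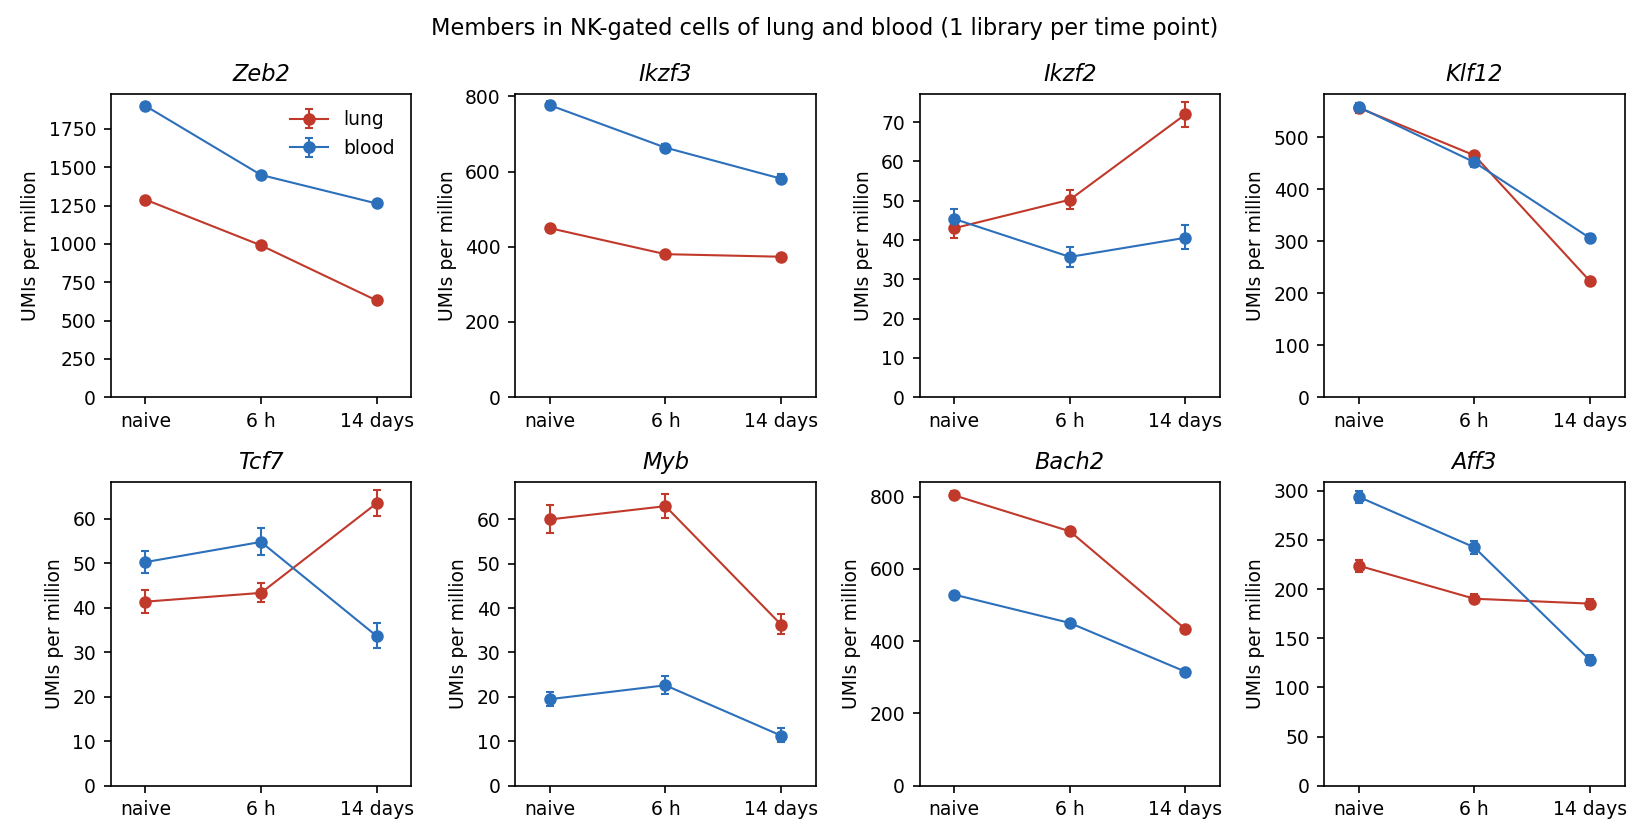
Level of each member (CPM of the summed cells, y axis from 0) in lung (red) and blood (blue) of the naive, 6 h and 14-day libraries (x axis), with exact 95% intervals for counting error. Zeb2, Ikzf3, Klf12, Myb, Bach2 and Aff3 were lowest at 14 days in both tissues. The 6 h and 14-day lung levels of Ikzf3 and of Aff3 overlapped. Tcf7 was at 63.5 CPM in lung and 33.7 in blood at 14 days.

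Lung and blood of 1 time point were compared first, since they shared a library. In naive mice, 3 of 8 members passed the fold: Myb was 3.08-fold and Bach2 1.52-fold higher in lung, and Ikzf3 was 1.73-fold lower. Of all genes tested, 6.03% were past the fold higher in lung and 3.51% lower. Zeb2 was lower with a log2 ratio of -0.56 (-0.58 to -0.54), just short of the fold. Klf12 had a log2 ratio of 0.00 (-0.04 to 0.03).

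At 6 h the same 3 genes passed the fold. Myb had a log2 ratio of 1.48 (1.34 to 1.62), Bach2 of 0.64 (0.61 to 0.68) and Ikzf3 of -0.80 (-0.84 to -0.77). The shares of all tested genes were 5.69% higher and 2.97% lower.

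At 14 days 5 members passed the fold between lung and blood. Myb at 1.69 (1.46 to 1.92), Tcf7 at 0.92 (0.78 to 1.05) and Ikzf2 at 0.83 (0.70 to 0.95) were higher in lung on the log2 scale. Zeb2 was 2.00-fold and Ikzf3 1.56-fold lower. Several of these calls depended on the processing: of 18 alternatives, Ikzf2 lost the fold under 7 (lowest log2 ratio 0.17), Ikzf3 under 5 (nearest to 0 at -0.51), Tcf7 under 2 and Zeb2 under 1. The background was 5.08% of genes higher and 3.69% lower. Zeb2 thus stood farther below blood than in naive mice, and Tcf7 had turned from -0.28 (-0.40 to -0.16) in naive mice to above blood. The median log2 ratio of the 8 members was -0.18 in naive mice, -0.15 at 6 h and 0.50 at 14 days, where all tested genes had medians of -0.09, -0.10 and -0.11.

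Over the 3 libraries together, lung and blood were compared by edgeR's quasi-likelihood test with the library as a block, which left 2 residual degrees of freedom and treats libraries of different treatment as replicates. Of the 8 members, 4 had an adjusted p under 0.05. Myb (log2 ratio 1.59, Benjamini-Hochberg adjusted p = 0.00123 by edgeR) and Bach2 (0.57, adjusted p = 0.00675) were higher in lung in 3 of 3 libraries. Ikzf3 (-0.74, adjusted p = 0.00347) and Zeb2 (-0.70, adjusted p = 0.0149) were lower in 3 of 3. Of all tested genes, 10.9% were called higher in lung and 24.2% lower by this test. Ikzf2 (0.41, adjusted p = 0.129 by edgeR) and Tcf7 (0.08, adjusted p = 0.819) did not pass. The number of members called was 2 without the 6 h library, 3 without the naive library and 7 without the 14-day library. Each of these fits left 1 residual degree of freedom. Of the 7957 tested genes, 275 were called higher and 126 lower without the 6 h library, and 317 and 183 without the naive library. Without the 14-day library, 1657 were called higher and 3800 lower, so that most tested genes were called there.

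At 6 h after injection no member passed the fold against naive cells in either tissue. Their log2 ratios lay between -0.38 for Zeb2 and 0.22 for Ikzf2 in lung, and between -0.39 for Zeb2 and 0.21 for Myb in blood. Past the fold were 0.465% of all genes higher and 0.0628% lower in lung, and 0.327% and 0.189% in blood. The median of the members was -0.21 in lung and -0.25 in blood, against -0.07 and -0.06 for all genes. The bin of genes with the longest span, which holds 6 members, had medians of -0.16 and -0.15 at this time.

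After 14 days, 6 of 8 members in lung and 5 of 8 in blood were past the fold. The naive library was the reference for these ratios and for those at 6 h. In lung, Klf12 (-1.32, -1.36 to -1.27), Zeb2 (-1.03, -1.057 to -1.004), Bach2 (-0.89, -0.92 to -0.86) and Myb (-0.73, -0.84 to -0.61) were lower on the log2 scale. Ikzf2 (0.74, 0.63 to 0.85) and Tcf7 (0.62, 0.50 to 0.73) were higher. In this comparison 3.83% of all genes were past the fold higher and 10.4% lower. Aff3 and Ikzf3 had the same log2 ratio, -0.27.

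In blood all 5 were lower. Aff3 was 2.298-fold lower, Klf12 1.82-fold, Myb 1.73-fold, Bach2 1.68-fold and Zeb2 1.504-fold, where 0.867% of all genes were past the fold higher and 2.85% lower. Tcf7, with a log2 ratio of -0.58 (-0.72 to -0.44), and Ikzf3, with -0.42 (-0.45 to -0.38), did not reach it. Klf12, Zeb2, Bach2 and Myb were therefore past the fold lower in both tissues. Ikzf3 and Aff3 were lower in both as well, short of the fold in lung, at -0.27 (-0.31 to -0.23) and -0.27 (-0.33 to -0.22) there. The median over the members was -0.50 in lung and -0.67 in blood, against -0.19 and -0.15 for all genes.

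The span of a gene moved with these ratios. The median log2 ratio at 14 days was 0.06 in lung and 0.11 in blood for the bin of genes with the shortest span, and -0.37 and -0.38 for the longest bin, which holds 6 members. In that bin, 21.1% of genes in lung and 8.93% in blood were past the fold lower. Relative to the median of their own bin, Klf12 (-0.95) and Zeb2 (-0.66) remained past the fold in lung, and Bach2 (-0.53) and Myb (-0.44) did not. In blood only Aff3 (-0.82) remained. Whether intronic reads were counted is not given in the sources used here, and the part of span in these ratios was not tested.

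The changes from naive to 14 days were set side by side for the tissues. The intervals of these differences are normal approximations from the counts, not exact intervals. For Tcf7 the log2 ratio in lung was 1.20 (1.02 to 1.38) above that in blood, for Aff3 0.93 (0.84 to 1.01) and for Ikzf2 0.90 (0.73 to 1.08). Zeb2 (-0.44, -0.48 to -0.41) and Klf12 (-0.45, -0.51 to -0.39) were more reduced in lung. For Myb the interval of the difference, -0.20 to 0.33, held 0.

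**Figure D2:**
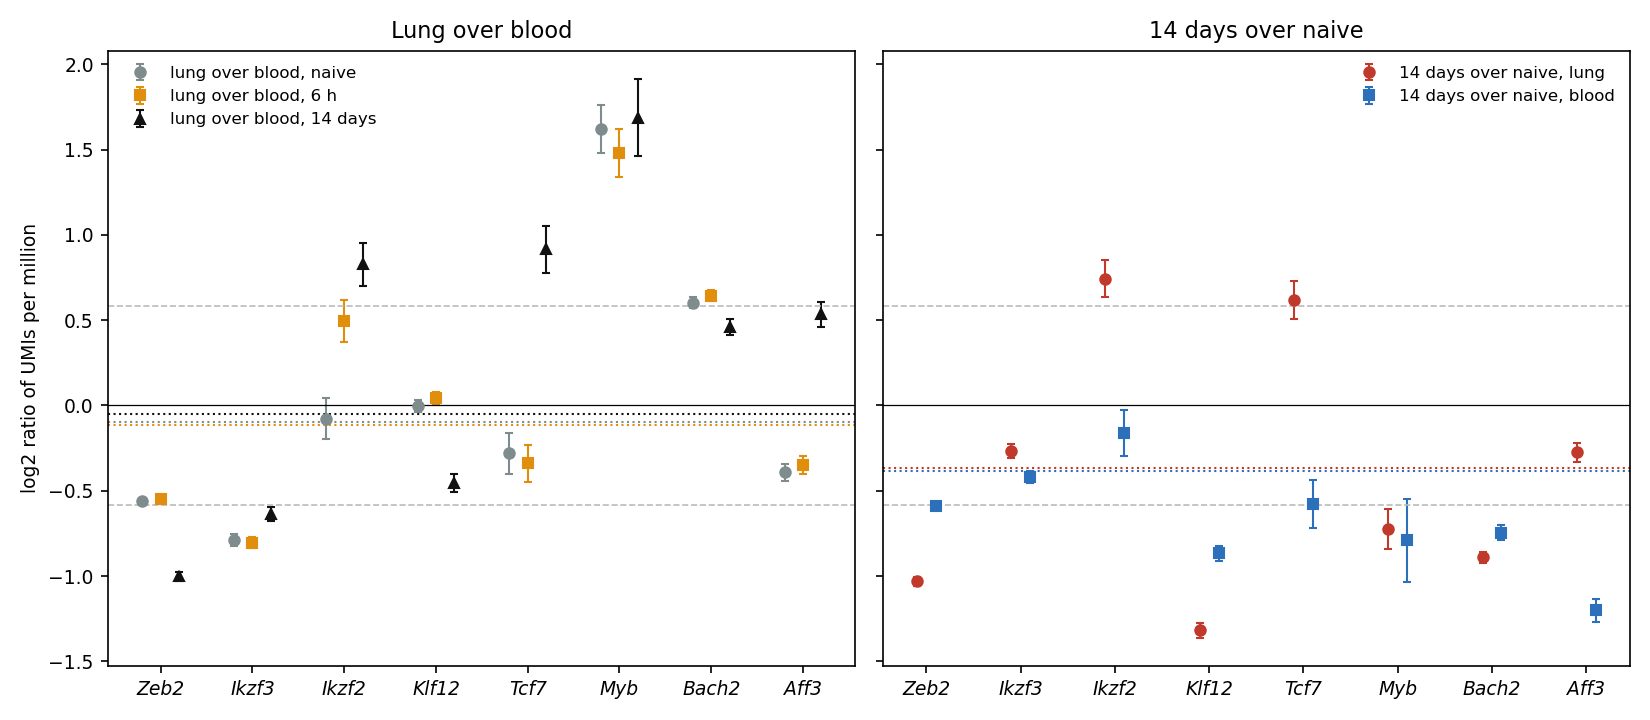
Log2 ratio of CPM for each member (x axis), lung over blood at 3 times on the left and 14 days over naive on the right, with exact 95% intervals. Dashed lines mark the 1.5-fold bounds and dotted lines the median of the bin of longest genes, -0.37 in lung and -0.38 in blood on the right. Tcf7 and Ikzf2 lie above 0 in lung and below 0 in blood at 14 days.

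To place the members along maturation, cells were classed by UMIs of Cd27 and Itgam after thinning to 3000 UMIs. These genes are not among the members, and a cell with no UMI may still express a gene. Itgam-only cells made up 50.2% of naive and 35.7% of 14-day lung cells, and 52.4% and 48.1% of blood cells. Cd27-only cells made up 6.38% and 8.57% of lung cells. Cells with a UMI of neither gene, the unclassed cells, made up 38.4% and 52.3% of lung cells.

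All members but Bach2 had an interval without 0 between Cd27-only and Itgam-only cells in the same direction in 6 of 6 groups. The intervals cover counting error only. The share of all tested genes with such a pattern was not computed, so this count has no background beside it. Zeb2 was lower in Cd27-only cells, with log2 ratios of -1.64 to -0.999. In naive lung it was at 650.2 CPM in Cd27-only, 1002 in double-positive and 1486 in Itgam-only cells. Klf12 (-1.01 to -0.35) and Ikzf3 (-0.43 to -0.24) were lower in Cd27-only cells as well.

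The other members were higher in Cd27-only cells. The log2 ratio was 1.73 to 2.18 for Tcf7, 1.05 to 1.64 for Ikzf2, 1.02 to 1.86 for Myb and 0.81 to 1.44 for Aff3. Many Ikzf2 UMIs came from the few Ikzf2-rich cells described above, which carried Cd3 genes in most groups. Neither this ratio of Ikzf2 nor its split by Itga1 or Pmepa1 below was computed without cells with Cd3 genes. Bach2 stood apart with 0.08 to 0.30, and its interval held 0 in 14-day lung. In naive lung, Tcf7 was at 100.1 CPM in Cd27-only, 60.4 in double-positive and 25.4 in Itgam-only cells. Myb there was at 92.2 and 107 CPM in the first 2 of these classes and at 45.5 in Itgam-only cells.

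**Figure D3:**
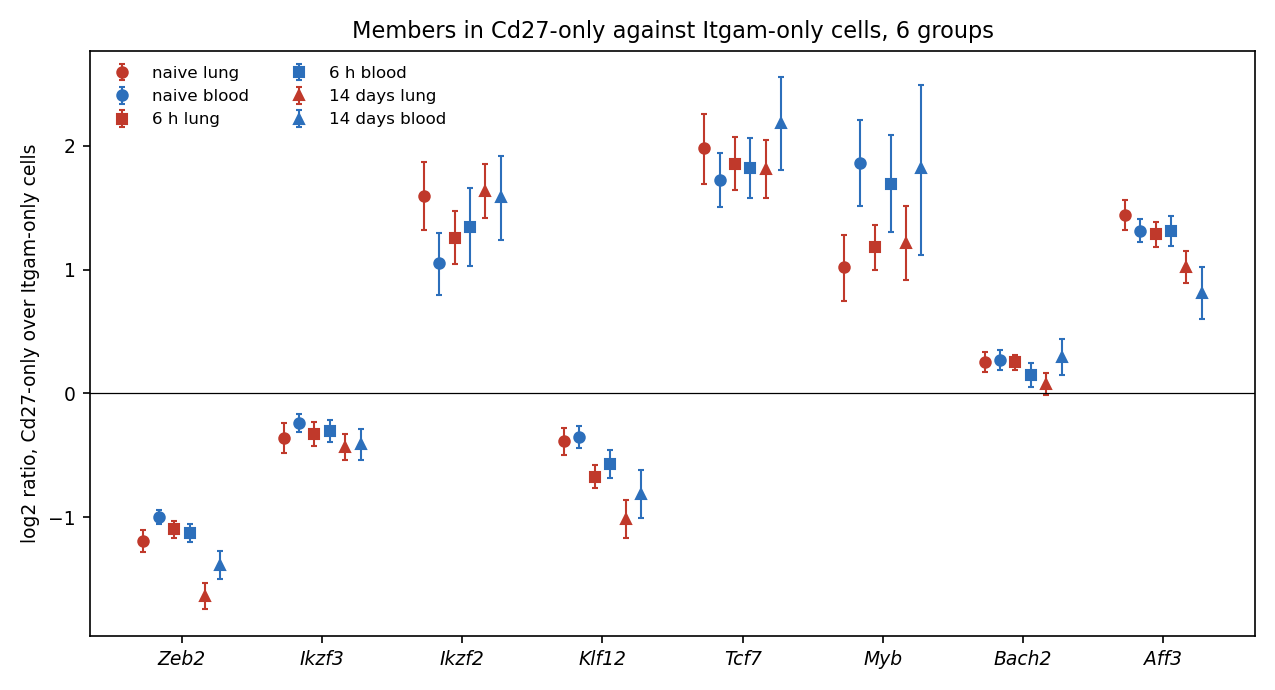
Log2 ratio of CPM in Cd27-only over Itgam-only cells for each member (x axis) in the 6 groups, with exact 95% intervals. Zeb2, Ikzf3 and Klf12 lie below 0 in all groups and Ikzf2, Tcf7, Myb and Aff3 above it, while Bach2 lies between 0.08 and 0.30.

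The 14-day differences were then read within these classes. In lung, Zeb2 was lower in Cd27-only (-1.15), double-positive (-0.59), Itgam-only (-0.71) and other cells (-1.20). Klf12 was lower by 1.04 to 1.67 across the 4 classes and Bach2 in all 4 as well. Tcf7 had log2 ratios of 0.21 (-0.07 to 0.49) in Cd27-only and 0.00 (-0.53 to 0.51) in double-positive cells. The ratio was 0.38 (0.14 to 0.61) in Itgam-only and 0.58 (0.42 to 0.75) in unclassed cells. These intervals overlapped between classes, and only those of Itgam-only and unclassed cells left out 0. Whether the ratio of Tcf7 differed between classes was not tested. With the class shares set equal, the 14-day lung ratio of Zeb2 was -0.88 in place of -1.03, that of Tcf7 0.43 in place of 0.61 and that of Ikzf2 0.55 in place of 0.74. Unclassed cells may be of any stage, so equal shares cannot separate a change in composition from a change within a stage. In blood, equal shares moved Aff3 most, from -1.21 to -1.18.

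Lung at 14 days held many cells with a UMI of Itga1 or Pmepa1. Itga1 encodes the integrin CD49a, a marker of tissue-resident NK cells and ILC1, and Pmepa1 is a target of TGF-β signaling. They made up 34.5% of thinned 14-day lung cells, 7.33% of naive and 9.96% of 6 h lung cells, and 4.59% to 7.08% of blood cells. In 14-day lung, Zeb2 was at 365 CPM in them and 777 in the other cells, and Klf12 at 161 and 257.

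The genes that were higher in Cd27-only cells were on the other side. Tcf7 was at 90.7 CPM in cells with and 48.8 in cells without such a UMI. Aff3 was at 263 and 142 CPM, Myb at 49.1 and 29.4, and Ikzf2 at 93.5 and 60.4. Bach2 was at 468 and 415 CPM, a difference of 0.17 on the log2 scale. Ikzf3, at 352 and 386 CPM, differed little.

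In naive lung the split was weaker for Zeb2, at 1169 and 1299 CPM, and for Klf12 no difference was detectable, with a log2 ratio of 0.01 (-0.08 to 0.11). In 14-day blood, Tcf7 was at 35.0 and 33.5 CPM, with a log2 ratio of 0.06 (-0.43 to 0.52), and Aff3 was lower in the cells with such a UMI, at 70.8 and 132 CPM. The pairing of Tcf7 and Aff3 with Itga1 or Pmepa1 in lung was therefore not seen in 14-day blood. In lung this pairing was also present in the other libraries. The log2 ratio of Tcf7 was 0.51 in naive, 0.88 in 6 h and 0.89 in 14-day lung. That of Aff3 was 0.49, 0.44 and 0.89. Ikzf2 was higher in cells with such a UMI in every group. Its log2 ratio was 1.32 in naive lung, 0.63 in 14-day lung and 2.03 in 14-day blood. Myb was lower in cells with such a UMI in 14-day blood, with a log2 ratio of -2.81 (-5.87 to -0.94). The 14-day ratios in lung were computed again without such cells, and the result for Tcf7 depended on how they were defined. Without the cells with such a UMI after thinning, as classed above, the ratio of Tcf7 was 0.28 (0.14 to 0.41) in place of 0.62. That of Zeb2 was -0.74, that of Ikzf2 0.64 and that of Aff3 -0.62, all past the fold. Without the cells with any such UMI before thinning, a wider class that left 1841 of 3575 cells in 14-day lung, Tcf7 was at -0.39 (-0.58 to -0.21), Zeb2 at -0.52 and Aff3 at -0.96, and Ikzf2 no longer passed the fold. Klf12, at -1.12 and -0.91, and Bach2, at -0.95 and -0.98, were past the fold in both. Myb was also past the fold lower in both, at -1.51 without the wider class in place of -0.73. For lung over blood at 14 days, Myb was at 0.70 without the wider class in place of 1.69.

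**Figure D4:**
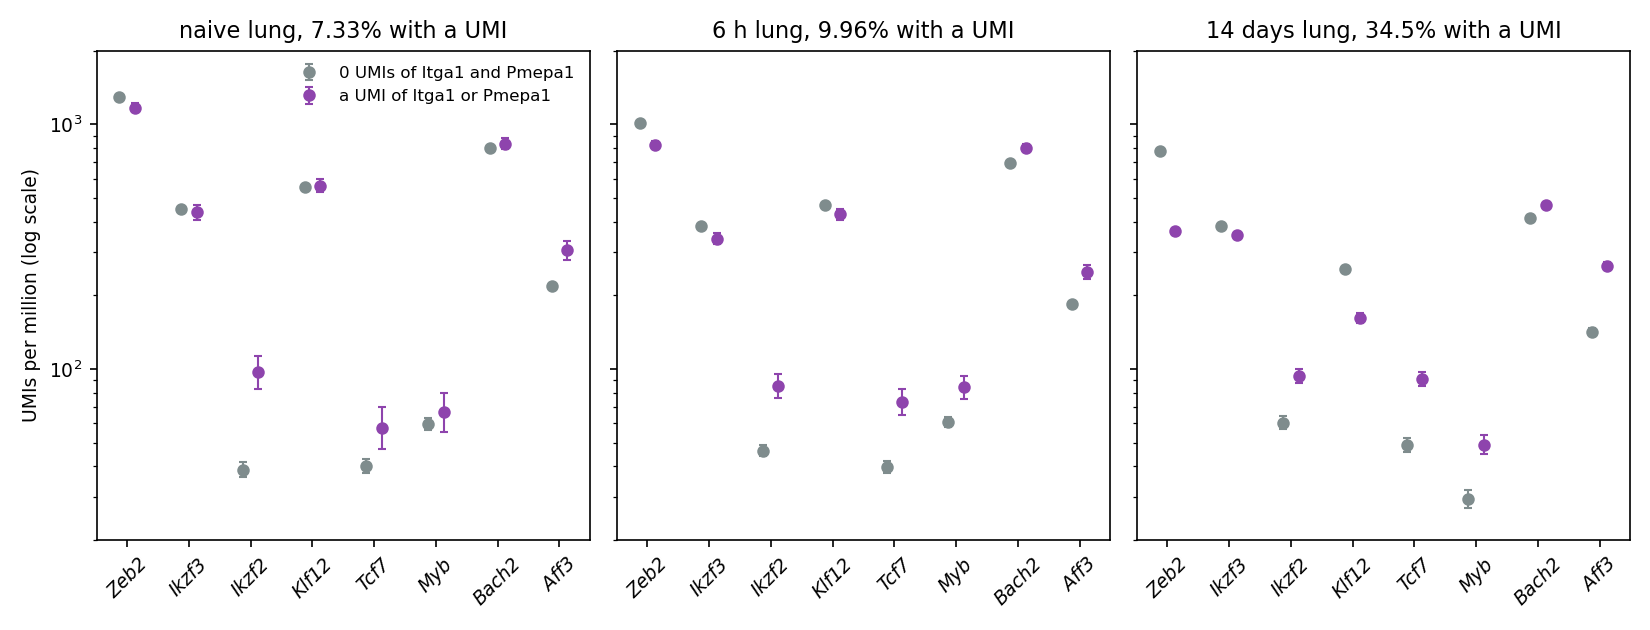
Level of each member (CPM, log axis) in lung cells with (purple) and without (grey) a UMI of Itga1 or Pmepa1 after thinning, in the 3 libraries, with exact 95% intervals. At 14 days Zeb2 was at 365 CPM in cells with such a UMI and 777 in the others, and Tcf7 at 90.7 and 48.8.

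Members were also compared cell by cell, as the level of each in cells with and without a UMI of another after thinning. Cells with a Zeb2 UMI had more Ikzf3 (median log2 ratio of the 6 groups 0.36) and Klf12 (0.56). They had less Tcf7 (-1.04), Ikzf2 (-0.98) and Aff3 (-0.61). Each of these held in 6 of 6 groups with an interval without 0, and Myb was lower in 5 of 6. The intervals cover counting error only. The share of all tested genes with such a pattern was not computed. These counts and those for Tcf7 below thus have no background beside them.

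Cells with a Tcf7 UMI showed the reverse. They had more Aff3 (1.32), Myb (1.15) and Bach2 (0.48) in 6 of 6 groups and more Ikzf2 (1.01) in 5 of 6. Zeb2 (-0.51) and Klf12 (-0.38) were lower in 6 of 6. Bach2 was tied to Tcf7, Myb and Aff3 and showed little relation to Zeb2, with -0.04 and an interval without 0 in 1 of 6 groups.

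**Figure D5:**
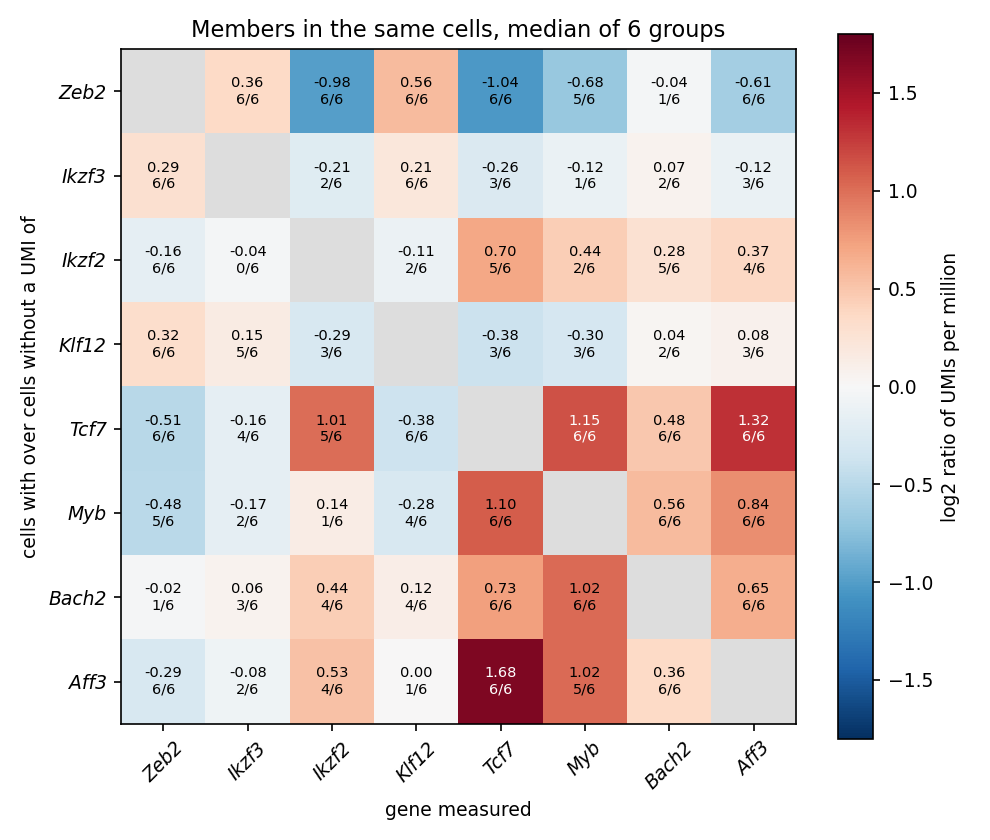
Median over 6 groups of the log2 ratio of each member (columns) in cells with over cells without a UMI of another member (rows), with the number of groups whose interval left out 0 in the more frequent direction. Tcf7, Myb, Bach2 and Aff3 share cells (red block), while Zeb2 is found with Ikzf3 and Klf12 (0.36 and 0.56 in the top row).

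The genes most like each member were sought among all tested genes over 24 points, the 6 groups by 4 Cd27 and Itgam classes. The points share libraries and depth, so the correlations of log2 levels are descriptions. Zeb2 was most like Tbx21, which encodes T-bet (Pearson's r 0.97), then Lrp6 and Foxn3. Ikzf2 was most like Il7r (0.85), Cd3d and Trbc1, and Myb most like Emb (0.96), Atp10a and Zhx2. Tcf7 was most like Kbtbd11 (0.94), Ighm and Spint2, and Aff3 most like Fgf13 (0.94), Ccr2 and Ssbp2. Klf12 was most like Dock2 (0.97), Scfd2 and Dock11, Bach2 most like Ssh2 (0.97), Itpkb and Stat4, and Ikzf3 most like Adamts10 (0.97), Elf4 and Cflar.

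Relatives of the members gave a background within the same families. Of 20 relatives, 13 were tested, and at 14 days over naive 7 were past the fold lower in lung and 0 higher. In blood 1 was lower. Of all tested genes, 10.4% were past the fold lower in lung and 2.85% in blood, and 3.83% and 0.867% higher. In the bin of longest genes 21.1% were lower in lung, and the lists here and below were not matched by span. The largest log2 ratios in lung were those of Klf2 (-1.28), which controls lymphocyte trafficking, Klf3 (-1.06) and Aff4 (-0.79). Ikzf1, which encodes Ikaros, had -0.37 in both tissues and Lef1, of the same family as Tcf7, -0.63 in lung. The median of the tested relatives was -0.63 in lung and -0.26 in blood.

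Of 20 other transcription factors of NK development, 17 were tested, and at 14 days over naive 8 were past the fold lower in lung and 0 higher, while 0 passed in blood. The shares of all tested genes in lung were 10.4% lower and 3.83% higher. Runx1 (-1.09), Foxo1 (-0.95) and Foxo3 (-0.85) had the largest ratios. Tbx21 had -0.53 in lung and Eomes -0.39, both short of the fold. The median was -0.53 in lung and -0.29 in blood.

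Of 11 tested surface and effector genes of late stages, 6 were past the fold lower in 14-day lung and 0 higher, Cma1 (-0.97), Spn (-0.93) and S1pr5 (-0.83) first, with a median of -0.74. In blood 0 were lower and 1, Gzmb, was higher, with a median of 0.04. Of 12 early-stage genes, 1 was higher in lung, Ltb (2.73), which encodes lymphotoxin beta, and 1 lower, Cd28 (-0.75), with a median of 0.07. In blood 2 of these 12 were higher and 3 lower, with a median of -0.14. Of all tested genes, 3.83% were higher and 10.4% lower in lung, and 0.867% and 2.85% in blood. The early-stage counts in lung, 1 of 12 each way, are too few to set apart from these shares.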

How the data were processed

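The authors deposited UMI counts per gene and hashtag for all barcodes, without normalization. The labels name Cell Ranger 7.0.1 and GENCODE GRCm38.p6, and the file headers Cell Ranger 7.1.0. Barcodes with 800 to 5000 genes, at most 6% mitochondrial counts and at least 90% of tag counts from 1 tag were kept. Of these barcodes 342, 158 and 141 had no clear tag and were left out, and doublets within a tissue were not removed. Counts were summed per group, divided by the total over genes and compared by exact conditional intervals at 95%. Differences between tissues in the change over naive had normal intervals instead. Cells under 3000 UMIs, 6 to 86 per group, were left out of thinned values. The limit of free RNA, estimated on barcodes of at most 100 UMIs by genes NK cells should lack, was 7.97%, 4.21% and 0.762% in the naive, 6 h and 14-day libraries. That limit was redefined on single markers after the values were seen. All 8 members are named. List genes are named by the largest absolute log2 ratio in lung at 14 days, and Ikzf1, Lef1, Tbx21, Eomes and Gzmb were named after their values were seen. Most similar genes were ranked on log2(CPM + 1). The members, lists, and the Itga1 and Pmepa1 split were chosen with earlier results of these data known. Gene positions are from GENCODE M21, a different release. Malat1 and Neat1 were not analysed here. Lung and blood were also compared over the 3 libraries by edgeR's quasi-likelihood test on the summed counts, with totals over genes as library sizes and the library as a block, a test added after the values were seen. Intervals were checked on simulated sums with counting error only, and this test on simulated counts of low dispersion without library effects. Neither check covers the spread between cells, mice or libraries in these data. Alternatives changed filters, tags, totals, depth, free RNA and the cells kept. Python 3.11.15, numpy 2.4.6, scipy 1.17.1, pandas 2.3.3, skimage 0.26.0 matplotlib 3.10.9, R 4.3.3 and edgeR 4.0.16 were used.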

Additional observations from a re-analysis of the deposited data

Results flagged for a closer look

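Tcf7 and Ikzf2 differed in direction between the tissues at 14 days over naive, and this difference was not tested, since each time point was 1 library. The log2 ratio of Tcf7 was 0.62 for lung but -0.58 for blood. That of Ikzf2 was 0.74 and -0.16. Ikzf2 also differed in direction at 6 h over naive, with 0.22 in lung and -0.35 in blood, both short of the fold. Beside the Tcf7 values stands the share of lung cells with a UMI of Itga1 or Pmepa1, 7.33% in naive and 34.5% in 14-day lung. The lung ratio was 0.28 without the cells with such a UMI after thinning and -0.39 without those with any such UMI before it. Beside the Ikzf2 values stands the level of Cd3d, 6.31 CPM in naive and 16.0 in 14-day lung, and 8.67 and 14.5 CPM in blood.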

How the results depend on the processing

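Between times no paired fit could be made, since each time was a single library. For lung over blood, the fit with the library as a block, added after seeing the data, called 4 of 8 members by edgeR. With each library left out in turn it called 2 to 7. The 7 came without the 14-day library, where 1657 of 7957 tested genes were called higher and 3800 lower. The ratios were computed under 18 alternatives, of which 5 were chosen after seeing the data. The alternative without a floor on CPM could not differ, since all 8 members passed the floor. Across the 18, the number of members past the fold stayed within 1.5 times its value except in 3 cases. For lung over blood at 14 days it was 3 in place of 5 with cells thinned to 3000 UMIs, and 1 with cells having any UMI of Itga1 or Pmepa1 left out, against 4 when only those with such a UMI after thinning were. For 14 days over naive in blood it was 1 in place of 5 relative to genes of like span. Tcf7 changed direction without cells having any UMI of Itga1 or Pmepa1, to -0.16 for lung over blood at 14 days and -0.39 for 14 days over naive in lung, but kept it at 0.54 and 0.28, short of the fold, without those having such a UMI after thinning. For lung over blood at 14 days, Ikzf2 lost the fold under 7 alternatives, Ikzf3 under 5 and Zeb2 under 1, at -0.51 without cells having any UMI of Itga1 or Pmepa1. The Ikzf2 ratio of 14 days over naive in lung lost the fold under 9 alternatives, with a lowest value of 0.06 without cells having any T, B, myeloid or epithelial marker, a setting that left 950 of 3575 cells in 14-day lung. Zeb2 in blood at 14 days lost it under 9, down to -0.21 relative to genes of like span. Tcf7 in lung at 14 days over naive lost it under 4, which included a hashtag share of at least 99% and at least 50 counts. Direction by Cd27 and Itgam class held for 7 of 8 members in all groups and for 7 with classes from all UMIs. It held for 5 with at least 2 UMIs required, where Cd27-only classes were as small as 42 cells. The share of all tested genes was not computed for these counts. Myb for lung over blood at 14 days went from 1.69 to 0.70 without cells having any UMI of Itga1 or Pmepa1, still past the fold. Counting error limits Myb most, with 191 UMIs in 14-day blood.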
